A study of Homo sapiens with 2 samples.

Results

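The genes described here are 10 members of the Notch pathway: the ligands JAG1 and JAG2, the receptors NOTCH1, NOTCH2 and NOTCH3, the proteases ADAM10 and ADAM17, the DNA-binding protein RBPJ, and the coactivators MAML1 and MAML2. They were followed through a list of 175546 peaks of CRTC2 RNA immunoprecipitation over input RNA. A peak in an exon or intron was counted for the gene whose exon or intron the list names, and any other peak for the gene the list assigns by the nearest transcription start. By this rule 9 of the 10 members carried 151 peaks, among 19480 genes with a peak. NOTCH3 carried none. The members were chosen by pathway and with the fold and q values of these same peaks known, so their counts describe the list and support nothing beyond it.

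CRTC2 is a coactivator of the transcription factor CREB, and the stated aim of the study was to find the messenger RNAs that CRTC2 associates with in connection with the m6A reader YTHDF2. The material was HCCLM3, an established cell line from a human hepatocellular carcinoma, with wild-type genotype in both groups, liver as the labelled tissue and no treatment in the labels. One group was RNA recovered with CRTC2 (CRTC2 RIP) and the other was input RNA, with 1 library in each. No replicate and no precipitation with a control antibody were analysed here, so none of the differences has a replicate check. Whether RNA was held by CRTC2 itself or would be retained by any antibody or bead cannot be told apart. Of 14 hepatocyte and hepatoma marker genes, 12 carried a peak, with none for SERPINA1 or GPC3. Peaks were also listed for 3 of 4 biliary, 3 of 6 blood, 1 of 6 stellate and fibroblast and 3 of 5 endothelial markers. A peak is RIP signal above input and not a transcript level, so the list cannot check the identity of the cells.

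Notch signalling runs between touching cells. A ligand of the Jagged or Delta family on one cell binds a Notch receptor on its neighbour, an ADAM protease cuts the receptor outside the membrane, and gamma-secretase then frees its intracellular domain. That domain enters the nucleus and joins RBPJ and a Mastermind-like (MAML) coactivator on target genes such as HES1. In the liver the pathway is best known for bile duct formation, and inherited loss of JAG1 or NOTCH2 causes Alagille syndrome.

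The gene that the list assigns to a peak was often not the gene whose exon the peak lies in. Of the 151 peaks, 105 (69.5%) had been assigned in the list to another gene by the nearest start, 35 of them to microRNA genes. The mature sequences of those inside JAG1, NOTCH1 and JAG2 are shown because the list files peaks of these genes under their names. They are from RefSeq on GRCh38.p14, written 5′ to 3′, with the seed (bases 2 to 8) in capitals.
hsa-miR-6870-5p: uGGGGGAGauggggguuga
hsa-miR-6870-3p: gCUCAUCCccaucuccuuucag
hsa-miR-4673: uCCAGGCAggagccggacugga
hsa-miR-6765-5p: gUGAGGCGgggccaggagggugugu
hsa-miR-6765-3p: uCACCUGGcuggcccgcccag
No seed was shared between any of them. The MIR6870 hairpin lies inside JAG1 at chr20:10649636-10649695, on the minus strand like its host. It had been given 16 of the JAG1 peaks, yet no peak in the list overlapped the hairpin itself. MIR4673, at chr9:136519568-136519626 inside NOTCH1, had been given 14 NOTCH1 peaks and MIR6765, at chr14:105150778-105150864 inside JAG2, had been given 3 JAG2 peaks. Neither of those hairpins was overlapped by a peak. The remaining 2 microRNA-assigned peaks lie in intron 1 of MAML2 and are filed under MIR1260B. Neither covers its hairpin, at chr11:96341438-96341526, though 1 other listed peak does. None of the 35 member peaks filed under a microRNA thus lies over its hairpin.

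The authors' list gives each peak a q value and a fold. The fold is taken here as the linear ratio of RIP to input at the summit, with 1 added to both. From fold and p the number of RIP fragments at the summit and the local input level, scaled to the depth of the RIP library, were recovered. At the lowest input level in the list, 0.0298, peaks of 1, 2 and 3 fragments have folds of 1.94, 2.91 and 3.88. Those fragment numbers cannot reach a higher fold. The interval given with a fold is the exact Poisson 95% interval of its RIP fragments, with the input level held fixed. It covers the counting error of the RIP fragments only and leaves out that of the input. Of the 151 member peaks, 12 had a q of at most 0.05, called significant below. That is 7.95% (exact binomial interval 4.17 to 13.5%), where 1.63% of all peaks in the list were significant. These 12 peaks fell in 5 of the 10 members, namely JAG1, NOTCH1, NOTCH2, RBPJ and ADAM17. Over all genes with a peak, 11.3% had at least 1 significant peak, and among the 9475 genes with 5 to 27 peaks, the range seen in the members, 14.4% did. JAG1 held 8 of the 12. The other 8 members with peaks had 4 significant peaks of 126, or 3.17% (0.872 to 7.93%), each in a different gene. Of these 126 peaks 61.1% were in exons by the rule, and 2.98% of all exon peaks in the list were significant. Over all summits inside these genes the significant share was 2.44% (0.668 to 6.13%).

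The typical member peak was small. The median fold was 1.94 (quartiles 1.82 and 2.83) for the members, against 1.89 (1.76 and 2.35) for all peaks, and the median number of RIP fragments at a summit was 2 in both. JAG1 had the highest medians by the rule, 12 fragments and a fold of 2.58, against 2 fragments and 1.94 over the rest of the members together. The next median folds were 2.33 for MAML2, on a median of 3 fragments, and 2.21 for MAML1. In median fragments MAML1 came next with 7, then RBPJ with 4.5 and ADAM10 with 4. The MAML1 medians include 4 summits in the neighbouring gene CANX. Over summits inside the gene the median fold of JAG1 was 2.87 and that of MAML1 was 2.68. At the summit, 54 of the 151 peaks (35.8%) had a single RIP fragment, as had 46.2% of all peaks. Exons held 89 of the member peaks, or 58.9% (50.7 to 66.9%), and 30.4% of all peaks. That share depends on the rule, which keeps exon peaks and drops 3′ UTR and promoter-class peaks filed under other genes. It was 44.5% over all summits inside the members and 30% by the assigned gene alone. Introns held 33 (21.9%, and 26.6% of all peaks), and the class within 3000 bp of a start, which the list names promoter before any other class, held 18 (11.9%, and 20.9% of all peaks). Of the significant member peaks 10 were in exons, 2 in the promoter class of JAG1 and 0 in introns. Of all exon peaks in the list 2.98% were significant, and of all peaks of any class 1.63%. At so low a share, 0 of 33 intron peaks is no trait of the members.

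**Figure D1:**
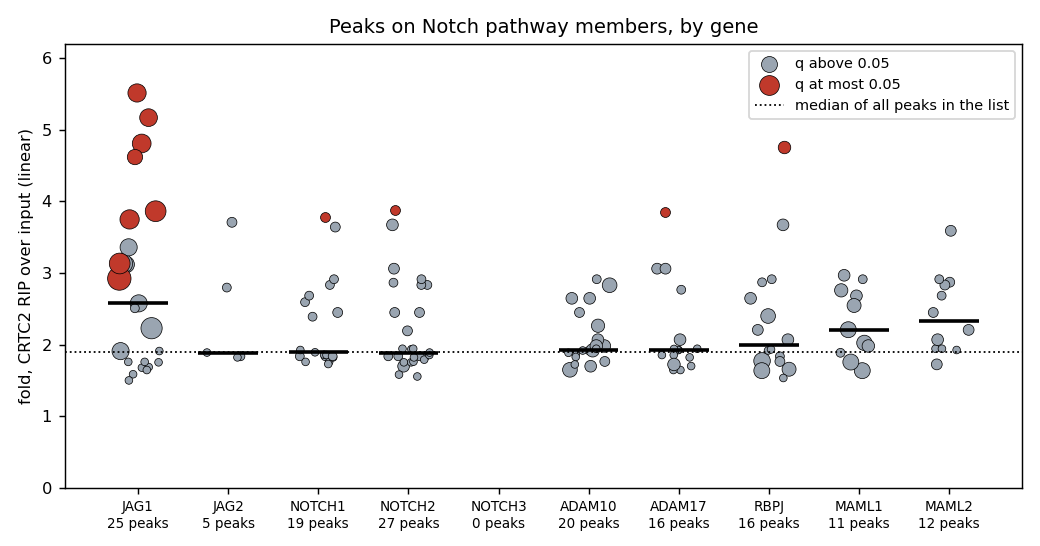
Each point is 1 peak of a Notch pathway member, with the authors' fold of CRTC2 RIP over input on a linear axis and the point's area growing with the RIP fragments at the summit; red points have a q of at most 0.05, bars are medians, and the dotted line is the median of all peaks (1.89). JAG1 holds 8 of the 12 red points and the largest points, while NOTCH3 has no peak.

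JAG1, the ligand whose gene lies at chr20:10637684-10673999 on hg38, minus strand, carried 25 peaks, of which 8 (32%, 14.9 to 53.5%) were significant. Only 2 of the 19480 genes had more significant peaks, and of the 1367 genes with 20 to 30 peaks JAG1 alone had 8 or more. Of those 1367 genes, 441 had any and the median was 0. The fold itself was less unusual, since 350 genes had a higher maximum.

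Significant JAG1 peaks lay on exons 15, 18, 19, 20, 21 and 25 of 26 (numbered on the transcript the list names) and at the start of the gene. The highest fold was on exon 18 (chr20:10644839-10644970), with 15 RIP fragments against an input level of 1.90, a fold of 5.52 (3.24 to 8.87) and a −log10 q of 4.04. The exon 15 peak (chr20:10645954-10646070) had 14 RIP fragments against 1.90, a fold of 5.17 (2.98 to 8.44). The exon 21 peak (chr20:10642465-10642585) had 16 fragments against 2.53, a fold of 4.81 (2.87 to 7.63). Their intervals overlap almost entirely, so the order of these exons is not resolved.

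The other significant exon peaks had lower folds, on input levels that spanned a wide range. The exon 19 peak (chr20:10644331-10644364) had 10 RIP fragments against an input of 1.38, a fold of 4.62 (2.43 to 8.14). The exon 20 peak (chr20:10643758-10643833) had 20 fragments against 5.70, a fold of 3.13 (1.97 to 4.76). The exon 25 peak (chr20:10640759-10640908) had the most RIP fragments of any member peak, 26 against 8.24, and a fold of 2.92 (1.95 to 4.23). Both libraries were deeper at exon 25 than at exon 18, and the fold was lower there.

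At the 5′ end, the promoter-class peak at chr20:10673453-10673975 had 20 RIP fragments against an input of 4.44, a fold of 3.86 (2.43 to 5.87). The peak at chr20:10672690-10672977 had 17 fragments against 3.80, a fold of 3.75 (2.27 to 5.88). Both peaks lie downstream of the annotated start, inside the transcribed gene. The outermost transcribed bases under the first of them are printed to show where this signal begins, at chr20:10673950-10673975 on the minus strand, transcribed bases 25 to 50 in RefSeq on GRCh38.p14, with capitals for the bases under the peak.
JAG1 start: CGAGAGCCGGGCGGGCACGCGTCATT
These 26 bases are 73.1% G or C, where the same bases of 35116 annotated starts had a median of 61.5%.

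The remaining exon peaks of JAG1 did not reach a q of 0.05 but held similar numbers of RIP fragments. Exons 16, 22 and 24 had folds of 3.13 on 18 fragments, 2.23 on 21 fragments and 3.12 on 12 fragments. Exons 3, 4 and 5 had 13 fragments each, with folds of 3.36, 2.58 and 1.91. Along exons 15 to 25 the 9 peaks had folds of 2.23 to 5.52 (median 3.13) on 10 to 26 fragments. The 11 intron peaks, 7 of them in intron 3, were of another order of depth. They rested on 1 or 2 fragments each, at folds of 1.50 to 2.84, and 0 were significant.

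By the rule no JAG1 peak falls between exon 5 and exon 15, but that gap comes from the assignment and not from the reads. In that stretch the list holds 9 further peaks, classed as promoter because MIR6870 starts nearby, with folds of 1.70 to 3.96 (median 3.33) on 5 to 18 fragments against input levels of 2.53 to 6.34. Of these, 2 were significant, at chr20:10646934-10647083 with a fold of 3.50 on 18 fragments and at chr20:10652109-10652230 with a fold of 3.96 on 13 fragments. A further 2 peaks in the 3′ UTR were also filed under MIR6870, and the wider one (chr20:10638080-10639931) was significant, with 24 RIP fragments against 7.60 and a fold of 2.91 (1.90 to 4.27).

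Counting every peak whose summit lies inside the gene, a way of counting chosen after the data were seen, JAG1 had 36 peaks and 11 significant ones (30.6%, 16.3 to 48.1%). Only 1 of 59792 RefSeq genes had more significant summits inside it. That total includes genes without any peak, and 19480 genes had a peak by the rule. The 25 of these peaks not classed as intron ran from the start of the gene to the 3′ UTR, with 5 to 26 fragments and folds of 1.70 to 5.52 (median 3.13). For those in the promoter class the list does not say whether they lie in an exon or an intron. The lower bound of the fold was above 1 in 24 of the 25. The list was filtered on p and so holds no stretch of JAG1 where RIP and input were alike, which limits what the 24 show.

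**Figure D2:**
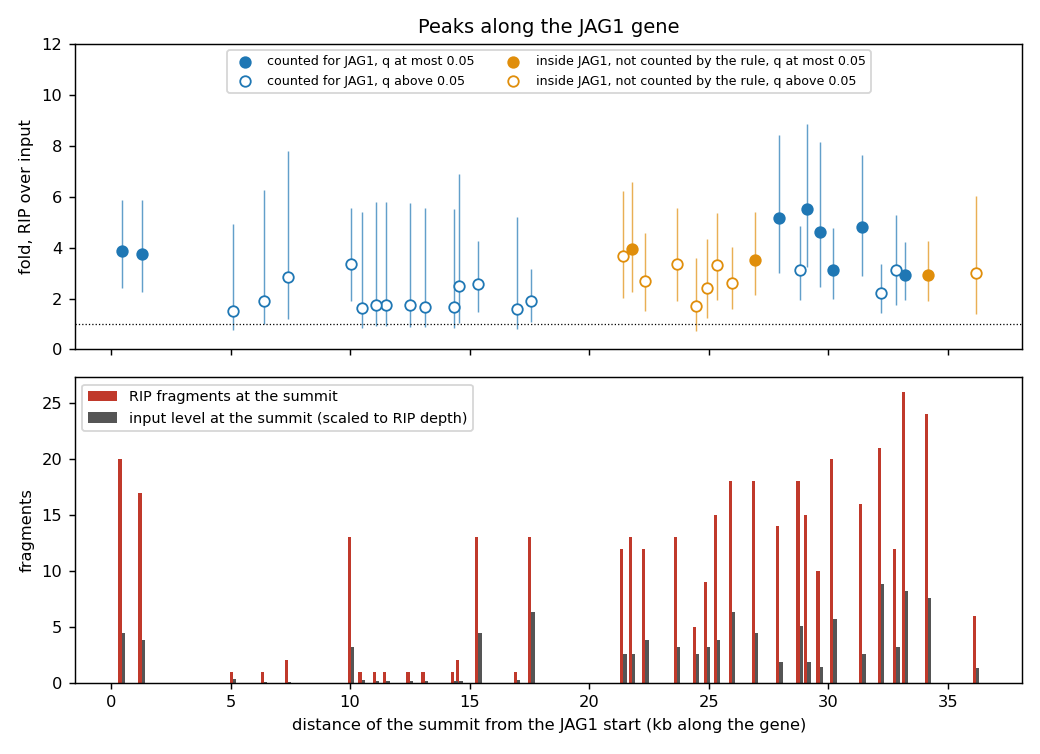
The upper panel gives the authors' fold at each peak inside JAG1 with its exact Poisson 95% interval, by distance of the summit from the gene start in kb; filled points have a q of at most 0.05, blue points are counted for JAG1 by the rule and orange points are not, and the dotted line is a fold of 1. The lower panel gives RIP fragments (red) and the scaled input level (grey) at the same summits: peaks of the exon, 3′ UTR and promoter classes have 5 to 26 RIP fragments, and those of the intron class have 1 or 2.

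Because a fold of a given size means more at greater depth, each member peak was set beside all peaks in the list with the same number of RIP fragments. At a fixed number of fragments fold and q both follow from the input level alone, so this position is another view of the same values and not separate evidence. Over the 25 peaks inside JAG1 with at least 5 fragments, significant or not, the fold was above that of a median of 95.1% of such peaks (range 0.0833 to 99.1%). For the 33 such peaks inside the other members the median was 46.9% (0.033 to 97.5%). Their per-gene medians were 56.8% for RBPJ with 10 peaks, 71.2% for MAML1 with 8 and 25.2% for ADAM10 with 11. Counted by the rule, which takes in 4 CANX summits for MAML1 and 1 YWHAQ summit for ADAM17, the medians were 96.9% over 14 JAG1 peaks and 29.7% over 32 peaks of the other members.

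JAG2, the other Jagged ligand (chr14:105140995-105168776), had 5 peaks and none significant. Its highest fold by the rule was on exon 25 (chr14:105143543-105143621), with 3 RIP fragments against an input of 0.0786, a fold of 3.71 (1.50 to 9.06). The q of that peak was 0.0585, the value just outside the limit. JAG2 rested on at most 3 fragments per summit, and its highest fold overlapped that of JAG1 in its interval. Counting all summits inside the gene added 6 peaks, none significant, with folds up to 4.11 on 4 fragments.

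The receptor NOTCH1 (chr9:136494433-136546048) had 19 peaks, 17 of them in exons, covering 14 of its 34 exons. Just 1 was significant, on exon 21 (chr9:136508012-136508092), with 3 RIP fragments against an input of 0.0589, a fold of 3.78 (1.53 to 9.22) and a −log10 q of 1.59. No NOTCH1 summit held more than 3 fragments, so its peaks are spread along the coding exons at very low depth. At 6 of the NOTCH1 summits another annotated gene, LOC124902310, overlaps, and the list gives no strand to separate them.

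NOTCH2 (chr1:119911553-120069662) had the most peaks of any member, 27, with 21 in exons, covering 20 of 34. The significant peak was filed on exon 12 (chr1:119942077-119963154) and is 21078 bp wide. It held 3 RIP fragments at its summit against an input at the floor of 0.0298, the lowest level in the list, with a fold of 3.88 (1.57 to 9.48). The fold and the 3 fragments belong to the summit, at chr1:119948544, and do not describe the rest of the 21078 bp. The most fragments at a NOTCH2 summit were 5, in a pair of peaks. The one on exon 32 (chr1:119918337-119918516) had an input of 0.634 and a fold of 3.67 (1.61 to 7.75), with a q of 0.423. The one on exon 34 (chr1:119915445-119915703) had an input of 2.53 and a fold of 1.70 (0.742 to 3.58). Part of NOTCH2 has near-identical copies in the NOTCH2NL genes, which carried 16 peaks, 5 of them in exons and none significant. How the authors' alignment divided reads among these copies is not given in the sources used here, so the NOTCH2 values are uncertain.

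NOTCH3 (chr19:15159038-15200995) had no peak by the rule or by summit. A single listed peak overlapped it, at chr19:15128395-15231970, 103576 bp wide, with 1 RIP fragment, a fold of 1.94 (0.996 to 6.38) and its summit outside the gene. The list holds only peaks, so it does not tell a NOTCH3 transcript at input level in the RIP from one with few reads in either library.

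ADAM10, the main protease that cuts ligand-bound Notch (chr15:58588809-58749707), had 20 peaks and none significant, although 11 of its 16 exons carried one. Its highest fold, 2.91 (1.21 to 7.99), rested on 2 fragments in an intron 5 peak of 12069 bp. The most fragments at a summit were 9, on exon 10 (chr15:58627689-58627856) against an input of 2.53, a fold of 2.83 (1.45 to 5.12), and on exon 15 (chr15:58599577-58599673) against 5.07, a fold of 1.65 (0.843 to 2.98). With 10 peaks of at least 5 fragments, the most of any member but JAG1, ADAM10 was seen at fair depth without a significant peak. Its 10 summits inside the 3′ UTR, filed under another gene, had folds of 1.55 to 2.51 on up to 8 fragments and did not change this.

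ADAM17, a related sheddase best known for releasing tumour necrosis factor (chr2:9488486-9555830), had 16 peaks, of which 10 rested on 1 fragment. The significant one was on exon 14 (chr2:9495452-9497785), 2334 bp wide, with 3 RIP fragments against 0.0393, a fold of 3.85 (1.56 to 9.40) and a q of 0.00826. The deepest peak counted for ADAM17 had 6 fragments and a fold of 1.72, but its summit lies in the gene YWHAQ. Inside ADAM17 the deepest had 5 fragments and a fold of 2.07 (0.904 to 4.37). At 6 ADAM17 summits the gene IAH1 overlaps, and reads of the genes cannot be separated without strand. The significant peak is among these 6 and is filed under IAH1, so it may not belong to ADAM17.

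RBPJ, which binds target DNA and receives the Notch intracellular domain (chr4:26105449-26435131), had 16 peaks and 8 of 12 exons covered. Its peak on exon 6 (chr4:26420590-26420744) had 6 RIP fragments against an input of 0.471, a fold of 4.76 (2.18 to 9.56) and a q of 0.0325. That q is the one just inside the limit among the members. Of the 4 significant peaks outside JAG1 it was the deepest and the only one with at least 5 fragments. The next RBPJ peak, on exon 8 (chr4:26424646-26424746), had 5 fragments against 0.634 and a fold of 3.67 (1.61 to 7.75) at a q of 0.423. The deepest RBPJ peak had 12 fragments and a fold of 1.77. Adding the 10 peaks in its 3′ UTR, with folds of 1.66 to 3.67 on up to 6 fragments, brought no further significant peak. The RBPJ pseudogenes carried no peak.

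MAML1 and MAML2 bridge RBPJ and the Notch intracellular domain to histone acetyltransferases, and neither had a significant peak. MAML1 (chr5:179732822-179777283) had 11 peaks, led by exon 5 (chr5:179773927-179774326) with 5 RIP fragments against 1.02 and a fold of 2.97 (1.30 to 6.27). Of the 11, 4 had their summit in the neighbouring gene CANX, including 3 at 11 fragments with folds of 1.64 to 2.21, and were counted for MAML1 by nearest start alone. MAML2 (chr11:95976598-96343195) had 12 peaks. The highest, at 3.59 (1.50 to 8.07) on 4 fragments, had its summit in CCDC82. Inside MAML2 the highest was 2.91 on 2 fragments, in an intron 1 peak of 228573 bp. The 3′ UTR of MAML1 held 4 further peaks filed under another gene, none significant, with folds of 1.79 to 3.67. The deepest of these had 11 fragments and a fold of 1.79, and the highest had 5 fragments.

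**Figure D3:**
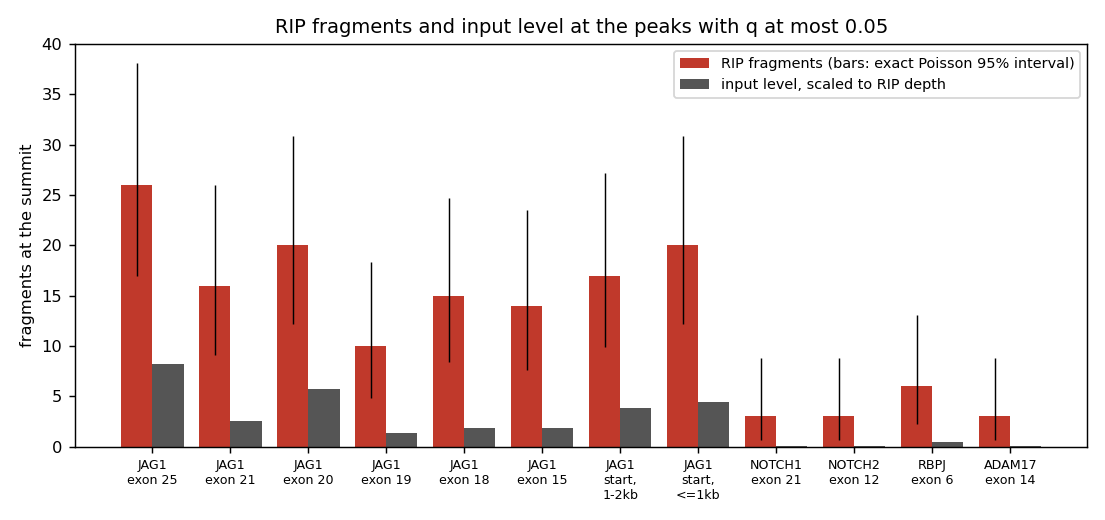
Red bars give the RIP fragments at the summit of each of the 12 member peaks with a q of at most 0.05, with exact Poisson 95% intervals, and grey bars the input level scaled to the depth of the RIP library; start, 1-2kb and <=1kb are the list's promoter classes. The JAG1 peaks have 10 to 26 RIP fragments, RBPJ has 6, and NOTCH1, NOTCH2 and ADAM17 have 3 each.

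Among the members, then, significance came with quite different depths. JAG1 had 8 significant peaks on 10 to 26 RIP fragments at input levels of 1.38 to 8.24. NOTCH1, NOTCH2 and ADAM17 had 1 each on 3 fragments at input levels of 0.0298 to 0.0589. In those 3 genes the fold exceeds that of several JAG1 peaks, but its interval runs from below the median of all peaks to above the highest fold of JAG1. The interval of the highest fold overlapped that of JAG1 in each of the other 8 members with a peak. Peaks over 10000 bp wide numbered 19 among the members and held at most 3 fragments at the summit. None of them was in JAG1, where the widest peak was 863 bp.

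**Figure D4:**
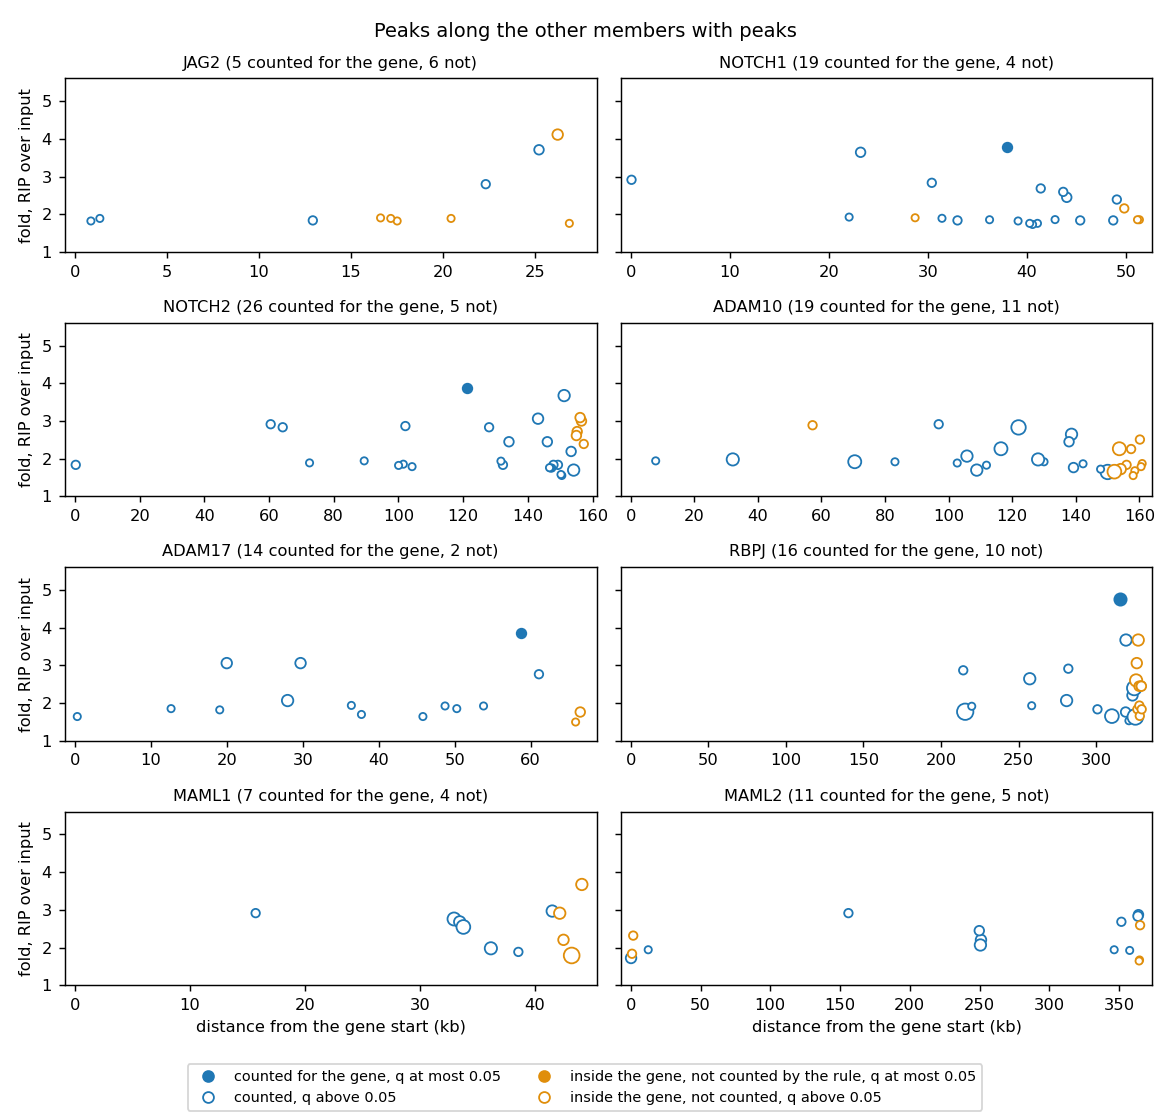
Each panel gives the authors' fold at the peaks inside 1 of the other members with peaks, by distance of the summit from the gene start in kb, with point area growing with RIP fragments; blue points are counted for the gene by the rule, orange points lie inside it but are not counted by the rule, and filled points have a q of at most 0.05. NOTCH1, NOTCH2, ADAM17 and RBPJ have 1 filled point each, and JAG2, ADAM10, MAML1 and MAML2 have none.

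The rest of the pathway was followed through 50 further genes in 7 lists. Of these, 43 carried a peak and 6 carried a significant one, with 7 significant peaks of 697 (1%). The median over genes of the highest fold was 3.06 for these lists, 3.78 for the members and 2.83 for all genes. A gene's highest fold tends to rise with its number of peaks, and these medians were not matched for it. There were 697 peaks over 43 further genes, 151 over 9 members and 175546 over all 19480 genes. By significant peaks the further genes were close to the background of the list, 1.63% of peaks and 11.3% of genes with a peak.

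Of 5 further ligands and receptors, DLL3 had a highest fold of 3.67 on 5 fragments and DLL4 of 1.94 on 1 fragment, and neither was significant. NOTCH4, DLL1 and DLK1 had no peak. MAML3, the remaining Mastermind-like coactivator, had 22 peaks and 1 significant, at 3.88 on 3 fragments in a peak of 23101 bp. All 6 genes of the gamma-secretase complex had peaks and 0 were significant, where 11.3% of all genes with a peak had a significant one. The highest folds there were 3.09 for APH1B, 3.06 for the subunit NCSTN and 2.91 for the catalytic subunit PSEN2. Of 6 genes that process or glycosylate the receptor, 5 had peaks and 0 were significant, led by the receptor convertase FURIN at 4.46 on 6 fragments, with POGLUT1 at 2.91 and POFUT1 at 2.65.

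Ligand endocytosis and receptor turnover were represented by 12 genes, of which 11 had peaks and FBXW7, which marks the intracellular domain for degradation, had 1 significant peak at 3.88 on 3 fragments. MIB1, the ligase that drives ligand endocytosis, reached 4.28 on 6 fragments and ITCH 3.71 on 3, neither significant. The nuclear cofactors held the most, with peaks in 10 of 10 genes and significant peaks in 4, where 11.3% of all genes with a peak had one. Among them were the histone demethylase KDM5A with 2 (highest fold 5.44 on 5 fragments) and the corepressors SPEN and NCOR1 (each 4.41, 2.26 to 7.98, on 9 fragments). The cofactor genes also carried 351 of the 697 peaks. Of these 351 peaks 5 were significant, where 1.63% of all peaks were. The acetyltransferase genes EP300 and CREBBP, at 3.91 and 3.45, were not significant.

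Target genes of the pathway had peaks in 8 of 10 cases and 0 significant. Since 11.3% of all genes with a peak had a significant one, a list this short can hold 0 without differing from the background. The same holds for the gamma-secretase and processing lists. SOX9 reached 3.86 on 4 fragments, HES4 3.09 on 6 and HES1 2.83 on 9.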

How the data were processed

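RNA from a CRTC2 precipitation and from input of HCCLM3 cells (1 library each) was analysed from the authors' annotated peak list. Per the labels' protocols, RNA was taken with a Magna RIP kit and sequenced from stranded total RNA libraries. The submitters' processing notes name HISAT2, MACS2 and the build hg38. Versions, settings and library totals are not stated in the sources at hand. The fold (a linear ratio) has its name in the deposited file, per the file headers. The deposited −log10 p-value and −log10 q-value stand in columns with spoiled headers and were identified by place and values. The deposited score equals 10 times the −log10 p rounded down, from the values, and was not used.

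RIP fragments n and input level were recovered as fold = (n + 1) / (input + 1) with a pseudocount of 1 and a Poisson tail p. A whole n met both within 0.001 for 100% of peaks and a single n for 97.5%. Of the member peaks, 6 had more than 1 such n, and the closest was taken. The recovery was tested on simulated data. Intervals are exact at 95% (Poisson for folds, Clopper-Pearson for shares) and cover counting error only. For folds that is the error of the RIP fragments, since the input level was held fixed. Fragments are not independent molecules where no molecular identifiers were counted.

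Significant means a q of at most 0.05. The members, the pathway and marker lists and the limits were chosen with earlier results of these data known. Named were each member's peaks of highest fold, lowest q and most fragments and all its significant peaks, and from each pathway list up to 3 genes of highest fold and all with a significant peak, of which 1 gene is not reported here. With 1 library a group no test was run. Gene spans, promoter windows and microRNA sequences came from RefSeq tables (GRCh38.p14). With no genome at hand, peak sequences were not analysed here. Python 3.11.15, pandas 2.3.3 and scipy 1.17.1 were used. Alternatives varied gene assignment, depth, width, contigs, class and threshold.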

Additional observations from a re-analysis of the deposited data

How the results depend on the processing

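Of 120 values recomputed under other settings, 93 stayed within the counting interval or, for counts, near the reported count, and 27 moved. The highest folds stayed within their counting intervals, which are too wide to show stability. By the assigned gene alone that of JAG2 was 1.89 in place of 3.71 and that of RBPJ 2.91 in place of 4.76, and with at least 5 fragments those of ADAM17 and MAML2 were 2.07 in place of 3.85 and 3.59. With at least 5 fragments JAG2 and NOTCH1 had no value. Counting peaks by the assigned gene alone left 60 member peaks, 2 significant, in 1 member, with a median fold of 1.88 and an exon share of 30%. Requiring the annotated and the assigned gene to be the same left 46 peaks, again 2 significant in 1 member, and an exon share of 13%. These settings drop the JAG1 exon peaks filed under MIR6870 by their construction. With at least 5 fragments 46 peaks remained, with a median fold of 2.47, an exon share of 73.9% and significant peaks in 2 members. At widths of at most 1000 bp the significant peaks fell in 3 members and the exon share was 66.9%. A fold of at least 4 left 5 peaks, all 5 significant, in 2 members, with a median of 4.81 and an exon share of 100%. Restricting to a q of at most 0.05 left the 12 significant peaks, with a median fold of 3.87 and an exon share of 83.3%. A q of at most 0.01 left 7 significant peaks in 3 members. Chosen after the data were seen, leaving out JAG1 left 4 significant peaks, and counting all summits inside the genes gave an exon share of 44.5%, with 15 significant of 200 peaks. No paired analysis was possible because each group has 1 library. Of the 126 summits outside JAG1, 32 held 5 or more RIP fragments. With no replicate, no control precipitation and no strand in the list, enrichment on one transcript cannot be told apart from nonspecific retention or from an overlapping gene.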
